A study of Mus musculus with 5 samples.

Results

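Short genes, whose counted gene body is 1 to 3 kb long, were examined for H3K14ac, the acetylation of lysine 14 on histone H3, in mouse LSK cells with and without functional Hbo1. The members were every gene of the gene body count table with a deposited length between 1000 and 3000 bp, less symbols of olfactory, vomeronasal and trace amine receptors and of histone cluster genes. Of 27179 genes, 2889 had such a length and 223 were left out by symbol (211 receptors and 12 histone genes). The remaining 2666 were 9.81% of all genes and 0.518% of all gene body bases. By annotation 1625 were protein-coding, 327 were long noncoding RNAs, 105 were transcribed pseudogenes and 83 were other pseudogenes. A further 503 had no symbol in the RefSeq table used, so receptors and histone genes among them could not be screened out. At the lower edge Krtap5-4 (1002 bp) and Tas2r137 (1002 bp) were inside, with log2 fold changes of KO over control in the gene body of -1.65 and -0.48, while Bola1 (999 bp) and Tas2r138 (996 bp) were outside, with 3.94 and -0.89. At the upper edge Bet1l (3000 bp) and Galr2 (3000 bp) were inside, with 2.07 and 0.89, while Pdzd11 (3002 bp) and Ccdc115 (3003 bp) were outside, with 1.91 and 4.04.

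H3K14ac was mapped with CUT&Tag, where an antibody guides the Tn5 transposase to the mark and the DNA beside it is cut and tagged. LSK cells, sorted from bone marrow, comprise blood stem cells together with early progenitors. They came from male C57BL/6 mice given poly(I:C) to induce Mx1-cre, a recombinase under an interferon-responsive promoter that is also active outside blood cells. The knockout group (KO, 2 libraries) had the genotype Hbo1def/def; T/+ and the control group (2 libraries) had Hbo1def/+; T/+, so the controls carried 1 def allele. The meaning of T is not given in the labels. One more library, for HBO1 itself in control cells, was not analysed here. Whether the libraries of a group were made from different mice is not stated; a p-value here reflects only how far these libraries spread, and that spread may be technical.

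HBO1, also named KAT7, is a lysine acetyltransferase of the MYST family that works in complexes with BRPF or JADE scaffold proteins and acetylates histone H3 at lysine 14. H3K14ac is commonly found around the start sites of active genes. Promoters with dense CpG dinucleotides are typical of genes used in most cells, and promoters with few are typical of tissue-restricted genes. In a short gene the counted body lies close to the start site, whereas most of a long gene body lies far from it. Short genes include many that encode small, abundant proteins such as ribosomal proteins, intron-poor genes that respond fast to stimuli, and single-exon genes of differentiated tissues.

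Promoter sequences of 4 members are shown because CpG content in this window differed between the members that rose and those that fell. They are RefSeq entries of GRCm38.p6, from 250 bases before to 50 bases after the annotated start, written 5′ to 3′ on the gene's strand with each CpG in capitals. Jund and Zfp36 rose over the gene body, and Lrrc30 and Mrgprh fell.
Jund, chr8:70697489-70697788, plus strand: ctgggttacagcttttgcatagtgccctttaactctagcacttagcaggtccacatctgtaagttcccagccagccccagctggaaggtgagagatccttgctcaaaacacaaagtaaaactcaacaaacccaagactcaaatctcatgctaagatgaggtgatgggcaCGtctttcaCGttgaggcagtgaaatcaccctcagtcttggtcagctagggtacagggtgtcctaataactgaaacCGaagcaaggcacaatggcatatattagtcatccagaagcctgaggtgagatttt
Zfp36, chr7:28379179-28379478, minus strand: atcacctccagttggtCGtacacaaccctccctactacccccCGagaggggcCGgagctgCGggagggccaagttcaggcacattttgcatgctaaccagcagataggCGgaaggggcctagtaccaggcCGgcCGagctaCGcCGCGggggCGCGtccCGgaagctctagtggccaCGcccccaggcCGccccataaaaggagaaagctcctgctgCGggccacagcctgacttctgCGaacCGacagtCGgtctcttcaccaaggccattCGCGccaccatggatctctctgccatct
Lrrc30, chr17:67632674-67632973, minus strand: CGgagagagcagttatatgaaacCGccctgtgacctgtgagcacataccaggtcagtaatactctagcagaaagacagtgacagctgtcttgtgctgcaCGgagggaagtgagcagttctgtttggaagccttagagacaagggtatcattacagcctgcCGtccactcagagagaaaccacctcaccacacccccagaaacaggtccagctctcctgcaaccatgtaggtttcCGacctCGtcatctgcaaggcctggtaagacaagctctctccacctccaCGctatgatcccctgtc
Mrgprh, chr17:12875784-12876083, plus strand: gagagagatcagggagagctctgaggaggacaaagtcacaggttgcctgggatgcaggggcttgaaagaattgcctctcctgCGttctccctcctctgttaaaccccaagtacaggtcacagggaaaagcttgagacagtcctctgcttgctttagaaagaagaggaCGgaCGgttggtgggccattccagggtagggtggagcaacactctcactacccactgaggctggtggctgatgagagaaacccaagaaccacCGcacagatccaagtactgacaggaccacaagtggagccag
The window of Zfp36 held 21 CpGs, with a ratio of observed to expected CpG of 0.699, and contained GGGCGG and a CArG box, the motif that serum response factor binds. The window of Jund held 3 CpGs (ratio 0.184) although Jund heads the named rises, that of Lrrc30, which also contained GGGCGG, held 7 (ratio 0.337) and that of Mrgprh held 4 (ratio 0.183).

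Gene body counts totalled 4723549 and 6031189 in KO libraries and 12386891 and 10572534 in control libraries, and no spike-in is stated, so levels are relative within a library. H3K14ac over the body of Kat7, which is no member, was, in counts per 1000000 (CPM), 88.2 and 39.1 CPM in KO libraries and 30.7 and 30.1 CPM in control libraries. When each library was left out, its log2 fold change lay between 0.394 and 1.59 over the body. Over the 5 kb upstream of Kat7 it went the other way, between -1.04 and -0.768. The mark over a gene does not check its deletion. The 12 progenitor marker genes had their median at percentiles 91.9 and 88.1 of all genes per kb in KO libraries and 75 and 77.9 in control libraries, with none at 0. The 5 mature myeloid markers lay at percentiles 92.5 and 94.9 in KO libraries and 74 and 79.2 in control libraries, and the B cell, T cell, erythroid and stromal lists between 51.6 and 82.2. Progenitor and myeloid markers thus lay within 10 percentiles of each other in each library. In control libraries the T cell list (76.7 and 82.2) and the stromal list (77.1 and 77.8) lay at about the progenitor level or above it. The B cell list (68.0 and 77.2) and the erythroid list (60.6 and 60.5) lay below it there. In KO libraries each of these lists lay below the progenitor list. In both control libraries, and in neither KO library, short genes with CpG-dense promoters carried less of the mark per kb than those with CpG-poor promoters, which is not the usual placement of H3K14ac at start sites of active genes. The counts used here hold no independent check of which libraries are KO, so the labels remain unchecked and every direction of KO over control rests on them.

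Short gene bodies held a larger part of the H3K14ac counts in KO cells. Their share of all gene body counts was 1.29 and 0.66% in KO libraries, against 0.374 and 0.382% in control libraries, with means of 0.974% ± 0.444 in KO libraries and 0.378% ± 0.00499 in control libraries (SD, n = 2 each). Both KO values were above both control values, and the first KO library was well above the second. More cells with the mark and more mark per cell cannot be told apart in bulk libraries. An exact two-sided permutation test over the 6 assignments gave p = 0.33, the smallest value this design allows. The difference of 0.596 percentage points was 0.282 without KO replicate 1 and 0.91 without KO replicate 2.

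The excess was largest over the gene body. Per kb, and per 1000000 counts over the 3 windows of all genes, short gene bodies had 1.77 and 0.984 in KO libraries and 0.591 and 0.595 in control libraries. Their 5 kb upstream had 1.06 and 0.76 in KO libraries and 0.57 and 0.60 in control libraries. Their 5 kb downstream had 0.803 and 0.665 in KO libraries and 0.548 and 0.588 in control libraries. The control libraries were nearly level across these windows, while in KO libraries the body stood above both flanks.

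As a ratio of body density to flank density, short genes gave 1.9 and 1.38 in KO libraries and 1.06 and 1.0 in control libraries, with means of 1.64 ± 0.369 in KO libraries and 1.03 ± 0.040 in control libraries (SD, n = 2 each; exact permutation p = 0.33, the smallest possible). The difference of 0.613 was 0.352 without KO replicate 1. Of the counts over the 3 windows of short genes, the body took 27.5 and 21.5% in KO libraries and 17.4 and 16.6% in control libraries. The downstream window took 31.2 and 36.6% in KO libraries and 40.5 and 41.3% in control libraries, and the upstream window 41.3 and 41.9% in KO libraries and 42.1 and 42.1% in control libraries. The 3 shares are parts of 1 total, so a larger body share lowers the others; per kb, both flanks were higher in both KO libraries than in either control library.

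Genes of 3 to 10 kb moved the same way as short genes in this ratio, by less, and the ratio was lower in KO libraries in each class from 10 kb up. The ratio at 3 to 10 kb was 1.13 and 1.03 in KO libraries and 0.99 and 0.967 in control libraries. It was 0.798 and 0.904 in KO libraries and 0.987 and 0.992 in control libraries at 10 to 30 kb. At 30 to 100 kb it was 0.684 and 0.923 in KO libraries and 1.15 and 1.13 in control libraries. Over 100 kb it was 0.628 and 0.893 in KO libraries and 1.18 and 1.12 in control libraries. In none of these 4 classes did the groups overlap. Genes under 1 kb had 2.2 and 1.88 in KO libraries and 2.15 and 1.97 in control libraries, and these groups overlapped. A lower ratio did not mean a lower body density in each class. Per kb, bodies of 10 to 30 kb had 0.901 and 0.756 in KO libraries and 0.597 and 0.651 in control libraries. Their 5 kb upstream had 1.41 and 0.929 in KO libraries and 0.592 and 0.649 in control libraries. Bodies of 30 to 100 kb had 0.778 and 0.809 in KO libraries and 0.75 and 0.787 in control libraries. Bodies over 100 kb had 0.594 and 0.751 in KO libraries and 0.917 and 0.867 in control libraries. Receptors and histone genes were left out of the short genes but kept in each of the other length classes. On the log2 scale the ratio of short genes minus that of genes of 3 to 10 kb was 0.75 and 0.43 in KO libraries and 0.09 and 0.05 in control libraries, a difference of 0.52 (exact permutation p = 0.33, the smallest possible). Against genes over 100 kb it was 1.60 and 0.63 in KO libraries and -0.16 and -0.17 in control libraries, a difference of 1.28 that came to 0.79 without KO replicate 1.

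**Figure D1:**
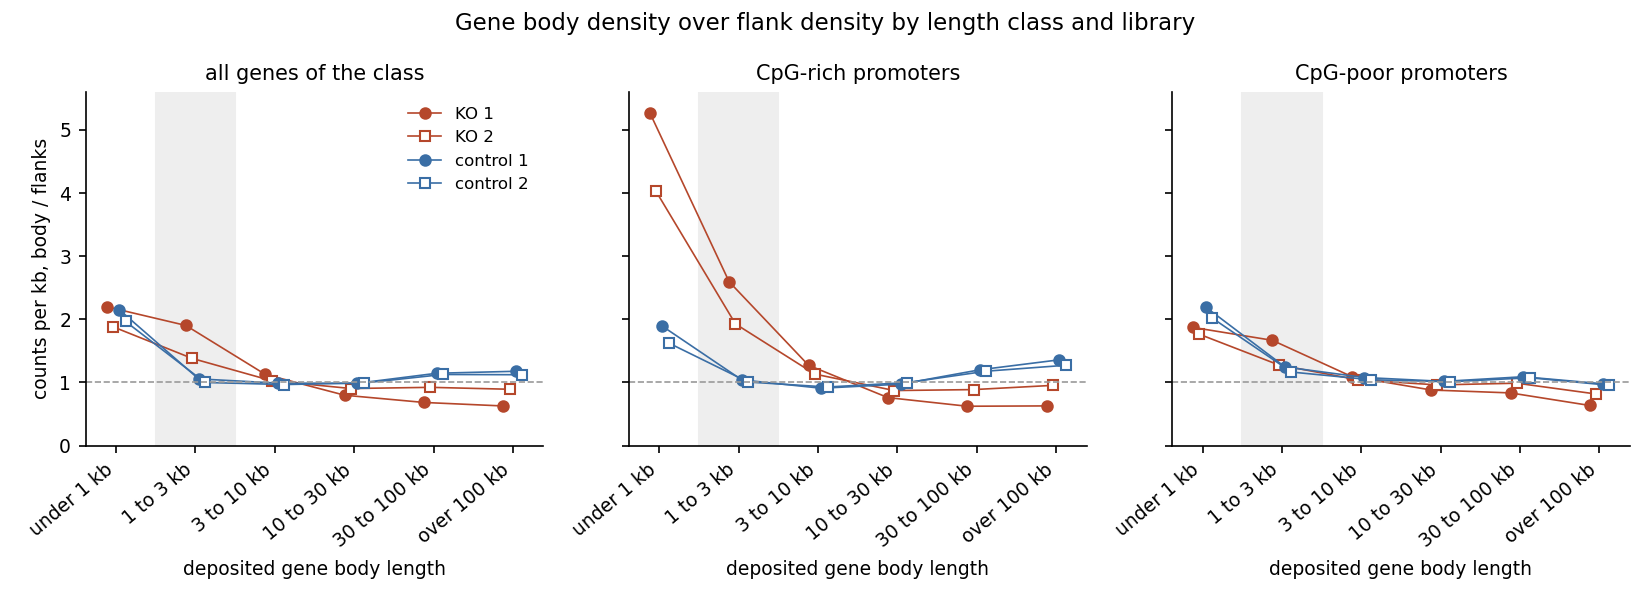
H3K14ac counts per kb of gene body divided by counts per kb of the 5 kb flanks (y axis) in 6 classes of gene length (x axis), for all genes and for CpG-rich and CpG-poor promoters; each point is 1 library, KO or control, and the band marks 1 to 3 kb. Short genes lie at 1.9 and 1.38 in KO libraries and 1.06 and 1.0 in control libraries, and those with CpG-rich promoters at 2.6 and 1.93 in KO libraries and 1.04 and 1.01 in control libraries.

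Taken one at a time, 1532 of the 2666 members had enough gene body counts to be tested, 612 rose in KO libraries and 103 fell (edgeR quasi-likelihood test, Benjamini-Hochberg adjusted p under 0.05 over all 21393 genes tested). These are 39.9% and 6.72% of the members tested, beside 23.1% and 15.2% of all genes tested. The median log2 fold change was 0.56 in the members tested and 0.02 in all genes tested. Calls in either direction made up 46.7% of the members tested and 38.3% of all genes tested. The KO libraries lay above both control libraries in 765 of the members tested and below both in 423, or 49.9% and 27.6%, beside 40.6% and 39.4% of all genes tested. A gene can pass the filter on low counts through the group where it is high, so these values describe the members tested and not all short genes. The split into rises and falls was 656 and 15 when scaled on library totals, 637 and 39 on totals pooled over the windows, 510 and 2 with the olfactory and other receptor genes, which blood cells do not use, as the scale and 435 and 246 after a correction for GC content. It was 362 and 27 without KO replicate 1, 684 and 165 without KO replicate 2, 309 and 1 without control replicate 1 and 392 and 23 without control replicate 2. No member called in one direction was called in the other under any of these settings. The median log2 fold change of the members tested was 0.056 after GC correction, beside -0.146 in all genes. It was 0.92 beside 0.36 with library totals, and 1.24 beside 0.67 with receptor genes as the scale. GC content was known for 88.9% of the members tested.

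Promoter type divided the short genes. A promoter entry was usable for 1264 members, of which 466 were CpG-rich, with a ratio of observed to expected CpG of at least 0.6. In CpG-rich short genes 289 of 364 tested bodies rose and 2 fell (Tram1l1 and Pdha2, named after their values were seen), with a median log2 fold change of 2.44. In CpG-poor short genes 88 of 474 rose and 56 fell, with a median of -0.36, which was 0.28 with receptor genes as the scale. Both CpG-poor shares lay below the 23.1% and 15.2% of all genes tested that rose and fell. After GC correction 235 CpG-rich bodies rose and 12 fell, and 61 CpG-poor bodies rose and 128 fell. Without KO replicate 1 it was 177 and 0 of 386 CpG-rich bodies, and 42 and 12 of 556 CpG-poor bodies.

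The difference was visible in the raw counts. The bodies of the CpG-rich members held 23116 and 11168 counts in KO libraries and 4959 and 5283 counts in control libraries, although the control libraries were deeper. Their body to flank ratio was 2.6 and 1.93 in KO libraries and 1.04 and 1.01 in control libraries, and that of the CpG-poor members was 1.67 and 1.28 in KO libraries and 1.25 and 1.17 in control libraries. On the same scale per kb, CpG-rich bodies had 3.62 and 1.48 in KO libraries and 0.339 and 0.418 in control libraries, and CpG-poor bodies had 1.32 and 0.90 in KO libraries and 0.81 and 0.782 in control libraries. CpG-rich bodies thus stood below CpG-poor ones in both control libraries and above them in both KO libraries. The 5 kb upstream had the same order, with 1.86 and 0.923 in KO libraries and 0.33 and 0.417 in control libraries for CpG-rich members and 0.85 and 0.738 in KO libraries and 0.677 and 0.691 in control libraries for CpG-poor ones. The low level at CpG-rich genes in control libraries is the unusual placement described above, and whether the group labels are right was not tested. The log2 ratio of the body to flank ratios, CpG-rich over CpG-poor, was 0.64 and 0.59 in KO libraries and -0.26 and -0.21 in control libraries (exact permutation p = 0.33, the smallest possible).

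**Figure D2:**
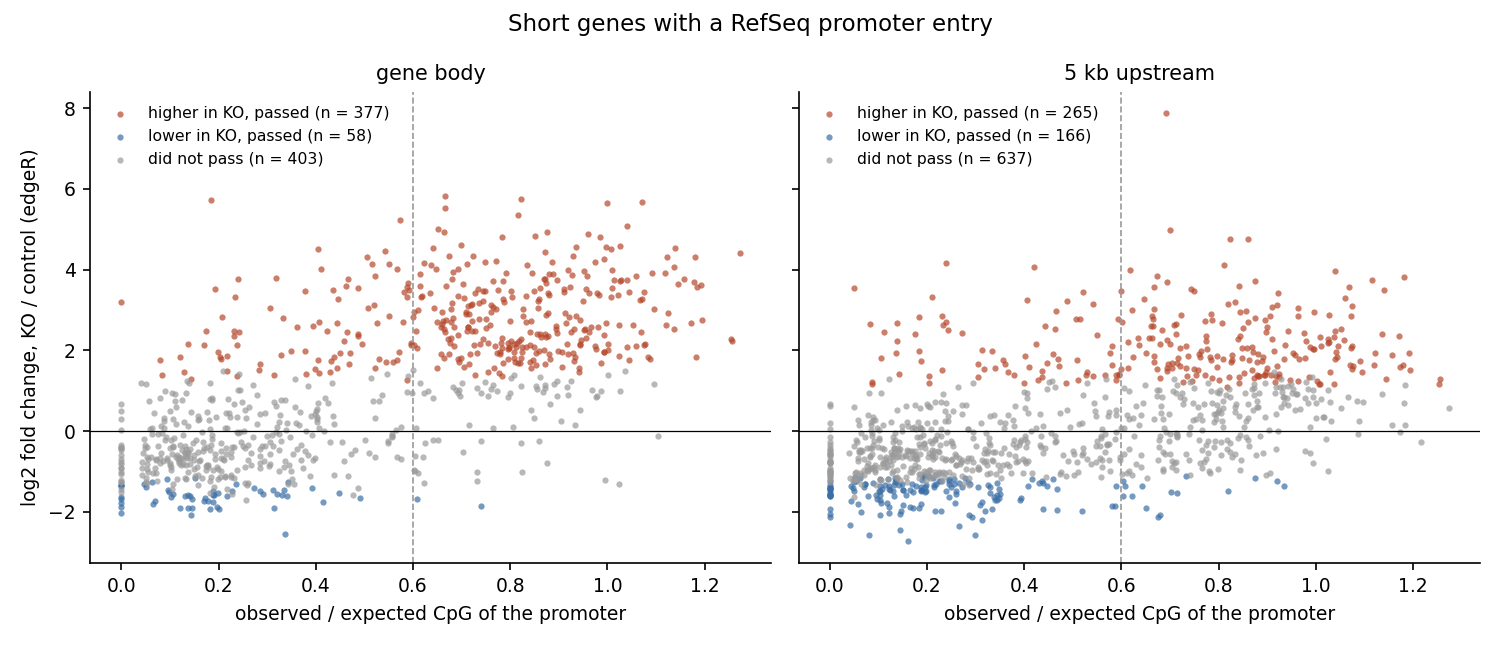
Log2 fold change of H3K14ac, KO over control (y axis), against the ratio of observed to expected CpG in the promoter (x axis) for short genes, over the gene body and the 5 kb upstream; each point is a gene, coloured by its call, and the dashed line marks 0.6. Over the gene body 289 genes right of the line and 88 left of it were called higher in KO.

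Promoter letters followed the same division. Of the 377 promoters of members that rose, 76.7% were CpG-rich, against 3.45% of the 58 promoters of members that fell and 49% of all 15426 promoters in the table. Motifs were searched as exact letters on both strands. GGGCGG, which itself holds a CpG, was present in 62.9% of promoters that rose, 5.17% of those that fell and 46.9% of all. TATAAA was present in 11.1% of promoters that rose, 32.8% of those that fell and 13.4% of all. CCAAT was present in 45.9% of promoters that rose, 37.9% of those that fell and 39.3% of all, and TGACGTCA in 3.18%, 0% and 2.39% in that order. A CArG box was present in 1.59% of promoters that rose, 0% of those that fell and 1.52% of all. The set of all promoters covers genes of every length. Of the 1264 members with a promoter, 36.9% were CpG-rich, 37.7% held GGGCGG and 18.8% held TATAAA. Of the 403 that were tested over the body and did not pass, 18.1% were CpG-rich, 29.03% held GGGCGG and 19.6% held TATAAA. Beside these sets of short genes, TATAAA was less frequent in promoters that rose.

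In genes with CpG-rich promoters, the share of tested bodies that rose was 91.1% under 1 kb, 79.4% at 1 to 3 kb, 61.7% at 3 to 10 kb, 43.2% at 10 to 30 kb, 20.1% at 30 to 100 kb and 2.06% over 100 kb. Over the 5 kb upstream of CpG-rich genes it was 47.1%, 46.2%, 47.9%, 47.5%, 43.6% and 27.8% in the same order. The body share was thus lower at each longer class, and the upstream share was level up to 30 kb. These are shares of the genes tested, and a gene can pass the filter through the group where it is high. The class under 1 kb had 76 CpG-rich genes before the filter. How much of the order by length came from the filter was not tested. The log2 body to flank ratio of CpG-rich short genes over that of CpG-rich genes of 10 to 30 kb was 1.77 and 1.14 in KO libraries and 0.10 and 0.01 in control libraries. Within the short genes, 39.5% of tested bodies rose at 1000 to 1499 bp, 40.1% at 1500 to 1999 bp, 38.7% at 2000 to 2499 bp and 41.2% at 2500 to 3000 bp.

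**Figure D3:**
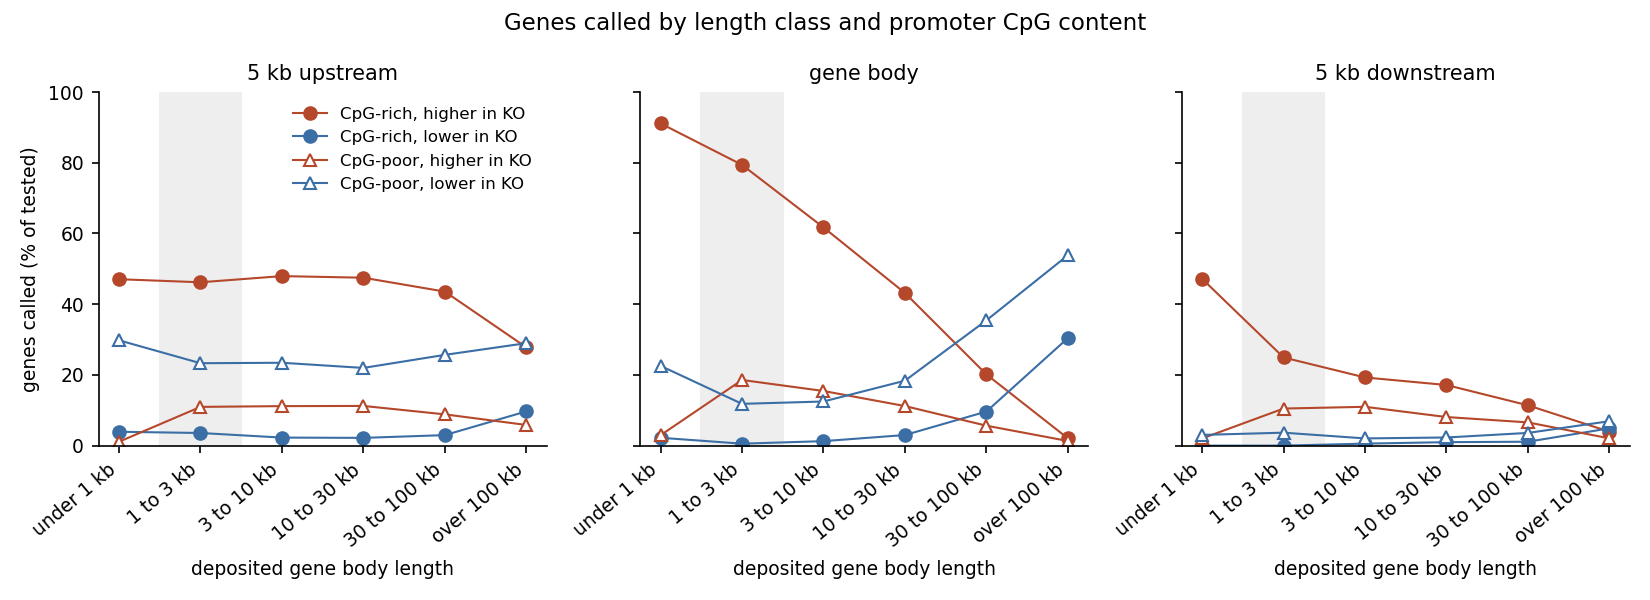
Percent of tested genes called higher or lower in KO (y axis) by gene length (x axis), over the 5 kb upstream, the gene body and the 5 kb downstream, for CpG-rich and CpG-poor promoters; the band marks 1 to 3 kb. Over the body the share of tested CpG-rich genes called higher is 91.1% under 1 kb and 2.06% over 100 kb. The shares cover only genes that passed the count filter.

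By kind of gene, 446 of 1044 tested protein-coding bodies rose and 75 fell, and 108 of 232 long noncoding RNA bodies rose and 9 fell. Of transcribed pseudogenes 3 of 49 rose and 6 fell, and of other pseudogenes 0 of 25 rose and 4 fell. Among all genes tested over the body 23.1% rose and 15.2% fell, so the share of pseudogenes that fell was near the background. Where the 5 kb upstream held the start site of another gene, 173 of 264 tested bodies rose, beside 386 of 1098 where it held none.

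Many short genes could not be read over the body. In 519 members the body had 0 counts in all 4 libraries, and 443 of these had upstream counts. Of those with a position 65% overlapped another annotated gene, against 19.9% of members with counts. Dusp1, an immediate-early phosphatase, had 0 body counts and 555 and 189 counts in KO libraries and 56 and 57 counts in control libraries in its upstream window (log2 fold change 3.13 ± 0.88, SE; edgeR adjusted p = 0.00256). Tuba1b, an alpha tubulin, also had 0 body counts, with 115 and 60 counts in KO libraries and 25 and 30 counts in control libraries upstream. Over all members the median body count was 7 and 9 in KO libraries and 9 and 10 in control libraries, so a single short gene usually rests on few reads.

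Immediate-early and stress genes, which respond to stimuli within minutes, rose together. All 13 tested of the 16 short genes in this list rose over the body, beside 23.1% of all genes tested. Their median log2 fold change was 3.88. Dusp1, Ier3 and Egr4 could not be tested there. Without KO replicate 1, 11 of 12 rose, and after GC correction 10 of 13. In the 5 kb upstream 12 of 15 rose, beside 24.0% of all genes tested there, and without KO replicate 1 edgeR called 0 upstream, with 11 at an unadjusted p under 0.05. No list was tested as a set. Over the body 39.9% of the short genes tested rose, and this share also stands beside each list below.

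Jund, a subunit of the AP-1 transcription factor, had 60.8 and 14.3 CPM in KO libraries, against 0.296 and 1.09 CPM in control libraries. Its KO values lay far above its control values, and the first KO library was the higher. The log2 fold change was 5.73 ± 0.56 (SE; edgeR adjusted p = 5.74e-13), and it lay between 4.37 and 6.89 when each library was left out. Junb, another AP-1 subunit, had 45.5 and 12.1 CPM in KO libraries and 0.395 and 0.594 CPM in control libraries (log2 fold change 5.81 ± 0.58).

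Zfp36 encodes tristetraprolin, which binds AU-rich messenger RNAs and promotes their decay. Its body had 69.4 and 18.8 CPM in KO libraries, against 1.48 and 2.08 CPM in control libraries (log2 fold change 4.61 ± 0.47, edgeR adjusted p = 3.38e-12). Its upstream window had 1422 and 563 counts in KO libraries and 32 and 52 counts in control libraries (log2 fold change 4.98 ± 1.48, adjusted p = 0.0044). Zfp36 was named among the largest rises in all 3 windows, although its downstream window, with 509 and 192 counts in KO libraries and 23 and 18 counts in control libraries, overlaps another gene.

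Ier2, an immediate-early nuclear protein, had 67.9 and 15.7 CPM in KO libraries and 1.09 and 1.98 CPM in control libraries. Rhob, a small GTPase, had 44.8 and 12.7 CPM in KO libraries, against 2.57 and 2.38 CPM in control libraries. In both genes the lower KO value was several times the higher control value. The stress genes Gadd45a, Gadd45b and Gadd45g rose by log2 fold changes of 3.05, 3.23 and 4.33. Klf2, a zinc finger factor of resting lymphocytes and endothelium, rose by 3.88 and Socs1, an inhibitor of cytokine signalling, by 3.60. The smallest change in the list was 2.02 ± 0.70 in Egr3 (edgeR adjusted p = 0.0181).

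**Figure D4:**
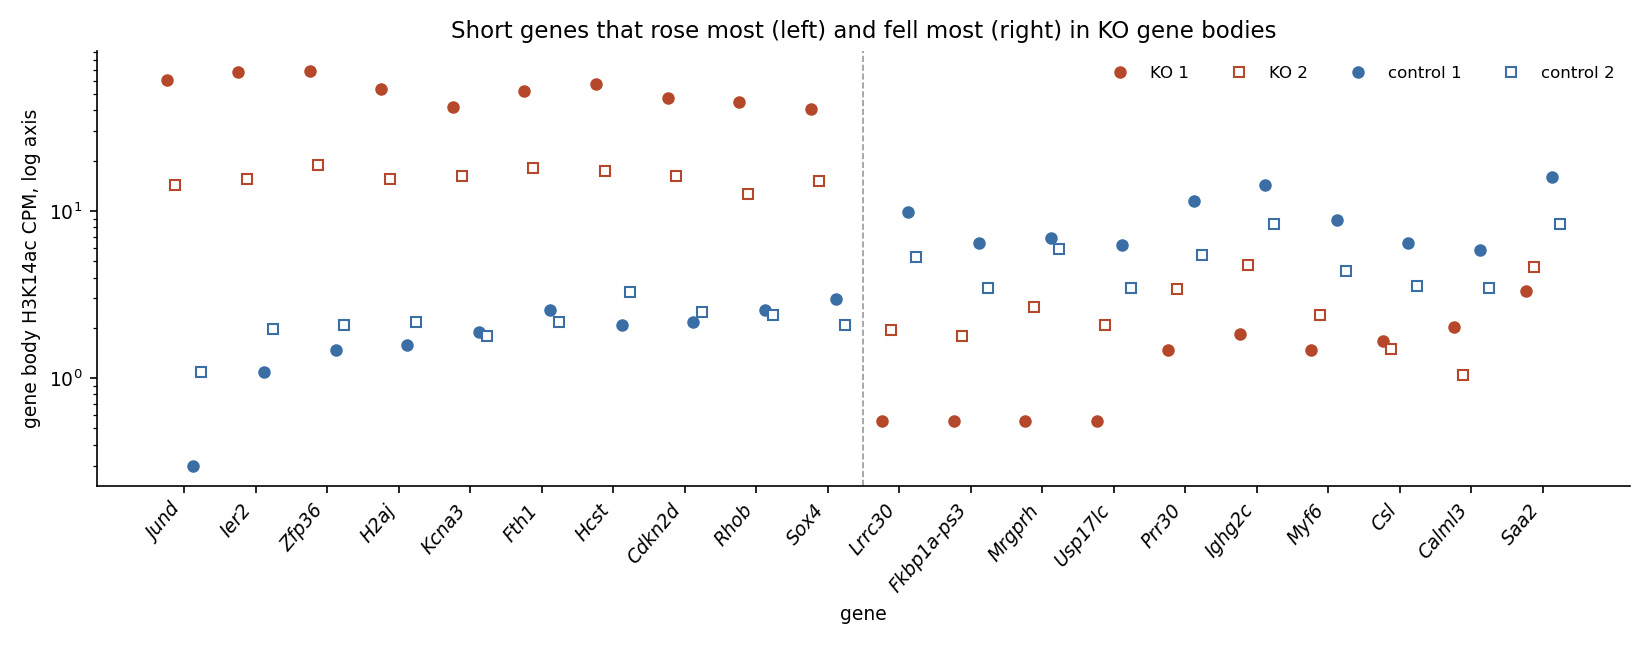
Gene body H3K14ac in CPM (log y axis) in each KO and control library for 10 short genes that rose and 10 that fell (x axis). In the 10 that rose no KO value is under 12.7 CPM and no control value over 3.27 CPM. In the 10 that fell both KO values lie below both control values. Groups without overlap were a condition for naming each of these genes.

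Regulators of blood stem and progenitor cells also rose. Of 14 short transcription factor and cell cycle inhibitor genes in this list, 12 were tested over the body and 11 rose. Over all genes tested 23.1% rose, and the median log2 fold change of the list was 3.54. Without KO replicate 1, 8 of 13 rose. Upstream, 11 of 14 rose, beside 24.0% of all genes tested there, and without KO replicate 1 edgeR called 0, with 10 at an unadjusted p under 0.05.

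Cebpd, a C/EBP factor of myeloid cells and the stress response, had 35 and 12.7 CPM in KO libraries and 0.79 and 0.792 CPM in control libraries (log2 fold change 4.88 ± 0.55; edgeR adjusted p = 1.06e-10), in a body that overlaps another annotated gene. Its relative Cebpb changed by 4.58 ± 0.65 and Cebpa, which drives granulocyte commitment, by 1.64 ± 0.51. Cebpe, a factor of late granulocyte maturation, had 70 and 24 counts in KO libraries and 35 and 34 counts in control libraries, and its log2 fold change of 1.26 ± 0.53 did not pass (edgeR adjusted p = 0.0538). The changes of Cebpa and Cebpe differed by less than their standard errors.

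Sox4, a factor of early lymphoid cells, had 40.7 and 15.2 CPM in KO libraries, against 2.96 and 2.08 CPM in control libraries. Cdkn2d, which encodes the p19 inhibitor of cyclin D kinases, had 47.3 and 16.3 CPM in KO libraries and 2.17 and 2.47 CPM in control libraries, while its upstream window did not pass (log2 fold change 0.61 ± 0.52, edgeR adjusted p = 0.338). Both genes were among the named body rises, for which groups without overlap were a condition. The helix-loop-helix inhibitors Id1, Id2 and Id3 rose by 2.81, 2.48 and 3.63. The Notch target Hes1 rose by 4.20 and Cited2, a coregulator needed by blood stem cells, by 3.67. Id4 had 1 and 3 counts in KO libraries and 0 and 3 counts in control libraries and Cdkn1c 7 and 7 counts in KO libraries and 10 and 6 counts in control libraries, too few to test.

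All 39 tested of the 42 short ribosomal protein genes rose over the body, beside 23.1% of all genes tested. The median log2 fold change was 2.81, with a range between 1.65 in Rpl29 and 4.94 in Rpl41. Without KO replicate 1, 29 of 39 rose, and after GC correction 34. Over the 5 kb upstream 19 of 24 rose, beside 24.0% of all genes tested there, and over the 5 kb downstream 7 of 23, beside 10.8%. When KO replicate 1 was left out, edgeR called 0 of 26 higher upstream, with 11 at an unadjusted p under 0.05 (DESeq2 with all 4 libraries called 17), and 2 of 26 downstream. Ribosomal protein genes have near-identical processed copies elsewhere in the genome, and how reads with several matches were counted is not given in the sources used here, so their single values are uncertain.

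Rpl41, a protein of the large ribosomal subunit, had 46.8 and 11.9 CPM in KO libraries and 0.79 and 1.09 CPM in control libraries. Rps23, of the small subunit, had 27.2 and 11.5 CPM in KO libraries, against 0.988 and 1.48 CPM in control libraries. Rps29, also of the small subunit, had 28.5 and 9.39 CPM in KO libraries and 0.988 and 1.39 CPM in control libraries. In each of them the first KO library was the highest and the control libraries lay close together.

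Among oxidative phosphorylation genes 15 of 19 tested rose and 0 fell, with a median of 2.12; without KO replicate 1, 7 of 20 rose. Over all genes tested 23.1% of bodies rose, and over the short genes tested 39.9%. Most tested bodies of short genes with CpG-rich promoters rose as well, as given above. The members of this list that did not pass were the pseudogenes Atp5c1-ps and Uqcrh-ps1, the testis form Cox8c and the hypoxia-induced Ndufa4l2. Their log2 fold changes lay between -0.46 and -0.15. Uqcrq, a subunit of complex III whose body overlaps another gene, had 31.4 and 10.6 CPM in KO libraries and 1.28 and 2.18 CPM in control libraries. Ndufaf3, an assembly factor of complex I, had 17 and 5.67 CPM in KO libraries, against 0.593 and 0.594 CPM in control libraries.

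Host genes of small nucleolar RNAs, which are spliced noncoding RNAs, rose in 8 of 9 tested cases, with a median of 2.36. Over all genes tested 23.1% of bodies rose and over the short genes tested 39.9%, which also stand beside the cell cycle and heat shock lists below. Snhg1 had 18.5 and 9.69 CPM in KO libraries and 1.38 and 1.48 CPM in control libraries, and its body, like those of Snhg3 and Snhg12, overlaps another annotated gene. Snhg20 did not pass (1.24 ± 0.56, edgeR adjusted p = 0.0717). Among short cell cycle genes 5 of 6 tested rose, with a median of 3.05, and without KO replicate 1, 3 of 6. The histone variant gene H2az1 had 105 and 43 counts in KO libraries and 6 and 3 counts in control libraries, and H2ax, which marks DNA breaks when phosphorylated, rose by 4.65. Of heat shock and ubiquitin genes 3 of 5 tested rose, led by the polyubiquitin gene Ubb with 23.3 and 5.22 CPM in KO libraries, against 0.494 and 0.693 CPM in control libraries, and after GC correction 2 of the 5 were called lower.

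The other named rises over the body, chosen among genes above the median level of all genes tested, came from several functions. Genes below that level, such as Junb and Rpl41, were passed over even where their log2 fold change was larger. Fth1, the ferritin heavy chain that stores iron, had 52.3 and 18 CPM in KO libraries and 2.57 and 2.18 CPM in control libraries. Hcst, the DAP10 adaptor of activating immune receptors, had 57.5 and 17.3 CPM in KO libraries, against 2.07 and 3.27 CPM in control libraries. Kcna3, a voltage-gated potassium channel, had 41.8 and 16.3 CPM in KO libraries and 1.88 and 1.78 CPM in control libraries. Groups without overlap were a condition for naming these genes. H2aj, a replication-independent H2A gene, had 54 and 15.7 CPM in KO libraries, against 1.58 and 2.18 CPM in control libraries. All 10 genes named as the largest body rises were called higher under each of the 14 alternative settings.

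Myeloid and inflammatory genes were mixed, beside 23.1% of all genes tested that rose over the body. Of 4 short granule and myeloid genes 3 rose, and 2 without KO replicate 1. Cd14, the lipopolysaccharide co-receptor of monocytes, had 38.8 and 10.3 CPM in KO libraries and 2.27 and 2.28 CPM in control libraries, and Ctsg, which encodes the granule protease cathepsin G, had 74.9 and 18.6 CPM in KO libraries, against 8.2 and 8.91 CPM in control libraries. Both were without overlap. Elane, which encodes neutrophil elastase, had 10.7 and 1.79 CPM in KO libraries, against 2.77 and 1.88 CPM in control libraries, so its groups overlapped; its log2 fold change of 1.40 ± 0.58 (edgeR adjusted p = 0.0465) was -0.34 without KO replicate 1. Camp, a cathelicidin, did not pass (0.78 ± 0.55). The summed level of the 5 mature myeloid markers, of which Cd14 is one, was 37.3 and 14.7 in KO libraries and 8.43 and 8.82 in control libraries, per kb and 1000000 gene body counts, and its part in these results was not tested.

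Among chemokines, cytokines and their receptors 7 of 25 tested rose and 2 fell, or 28% and 8.0%, beside 23.1% and 15.2% of all genes tested, so the share that rose was near that of all genes. The median log2 fold change was -0.18, and it was 0.19 with library totals as the scale. Tnf, an inflammatory cytokine, had 39.8 and 11 CPM in KO libraries, against 1.58 and 2.87 CPM in control libraries. The neighbouring chemokine genes Ccl3 and Ccl4 rose by 2.47 ± 0.42 and 2.48 ± 0.44. Their annotated spans overlap other genes, and that of Ccl4 differs from its deposited length of 2100 bp by more than 20%. Ltb, Ccr10, Il23a and Cxcl2 rose by 3.33, 2.93, 1.64 and 1.54. The chemokine genes Ccl20 and Ccl8 fell, with -1.90 and -1.58, and with library totals as the scale 0 of the list were called lower. Without KO replicate 1, 5 of 26 rose and 0 fell.

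Of 5 interferon response genes 3 rose over the body, and without KO replicate 1 a single one did. Ifitm2, which restricts virus entry, had 42 and 14.8 CPM in KO libraries and 3.75 and 2.97 CPM in control libraries. Ifitm3 and Isg15 rose by 2.13 and 1.98, while Ifitm1 (0.31 ± 0.46) and Ifi27l2a (-0.82 ± 0.52) did not pass. Over the body 23.1% of all genes tested rose. The mice of both groups had been given poly(I:C), which triggers interferon.

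Red cell and platelet genes had no call over the body: 0 of 4 tested rose and 0 fell with edgeR and 0 with DESeq2, and 0 had an unadjusted p under 0.05. The beta globin gene Hbb-b1 had 4.07 and 2.83 CPM in KO libraries and 3.06 and 2.28 CPM in control libraries, and its groups overlapped. In each flank all 9 genes of this list were tested. Upstream Ppbp fell (-1.31 ± 0.50, edgeR adjusted p = 0.0284), and 14.3% of all genes fell there. Downstream Gp1ba (2.46 ± 0.60, edgeR adjusted p = 0.0112) and Hbb-b1 (1.23 ± 0.36, adjusted p = 0.0299) rose, beside 10.8% of all genes. The window of Gp1ba overlaps another gene. DESeq2 called 0 upstream and 1 downstream. Of 21 short Hox genes 8 were tested; Hoxa7 (1.75 ± 0.54) and Hoxb2 (1.81 ± 0.64) rose, a share of 25% that is near the 23.1% of all genes tested, and after GC correction 0 did. Hoxa7, used in blood progenitors, had 8.51 and 5.96 CPM in KO libraries, against 1.98 and 2.28 CPM in control libraries.

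Transcription factors of other tissues were mostly too low to test, with 15 of 49 tested over the body. Of these 5 rose (Foxd4, Foxq1, Hes5, Lbx1 and Ascl2) and Myf6 fell; after GC correction 1 rose and 7 fell, and without KO replicate 1, 3 rose and 0 fell. Among all genes tested over the body 23.1% rose and 15.2% fell. Foxd4, a forkhead factor, had 12.6 and 4.62 CPM in KO libraries and 0.494 and 0.891 CPM in control libraries. Hes5, a Notch target, had a log2 fold change of 2.58 ± 0.58, which was -0.0066 after GC correction. In the upstream window 1 of 45 rose and 5 fell, the falls being 11.1% of those tested, below the 14.3% of all genes tested. DESeq2 called 2 upstream in either direction, and edgeR without KO replicate 1 called 0, with 2 at an unadjusted p under 0.05. One of the falls was Msc, a repressor of muscle differentiation, with 6 and 19 counts in KO libraries, against 107 and 58 counts in control libraries (-2.32 ± 0.50; edgeR adjusted p = 7.58e-05).

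Keratin-associated and cornified envelope genes, which build hair and the skin barrier, had 18 of 46 members tested over the body; 0 rose and 4 fell, the falls being 22.2% of those tested beside 15.2% of all genes, with a median log2 fold change of -0.80. With library totals, pooled totals or receptor genes as the scale 0 fell, and without KO replicate 1, 0 of 33 fell, with 5 at an unadjusted p under 0.05 in edgeR; DESeq2 called 0. Over the 5 kb upstream 11 of 39 fell, beside 14.3% of all genes tested, and 0 with receptor genes as the scale. DESeq2 called 2 there, and edgeR without KO replicate 1 called 0, with 3 at an unadjusted p under 0.05. Krtap5-4, a hair protein gene, had 0.74 and 0.895 CPM in KO libraries, against 3.16 and 2.08 CPM in control libraries, without overlap (-1.65 ± 0.64; edgeR adjusted p = 0.0353). Of defensins and other secreted epithelial proteins 2 of 26 tested fell, Scgb2b2 (-1.79) and Defb21 (-1.31), and 0 rose, so the share that fell, 7.69%, was below that of all genes; with library totals, or without KO replicate 1, 0 fell; without KO replicate 1, 3 were at an unadjusted p under 0.05 in edgeR, and DESeq2 called 0 with all 4 libraries. Of the 9 taste and itch receptor genes, 2 were tested: Mrgprh fell, with 0.555 and 2.68 CPM in KO libraries, against 6.91 and 5.94 CPM in control libraries, and Tas2r137 did not pass (-0.48 ± 0.64).

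**Figure D5:**
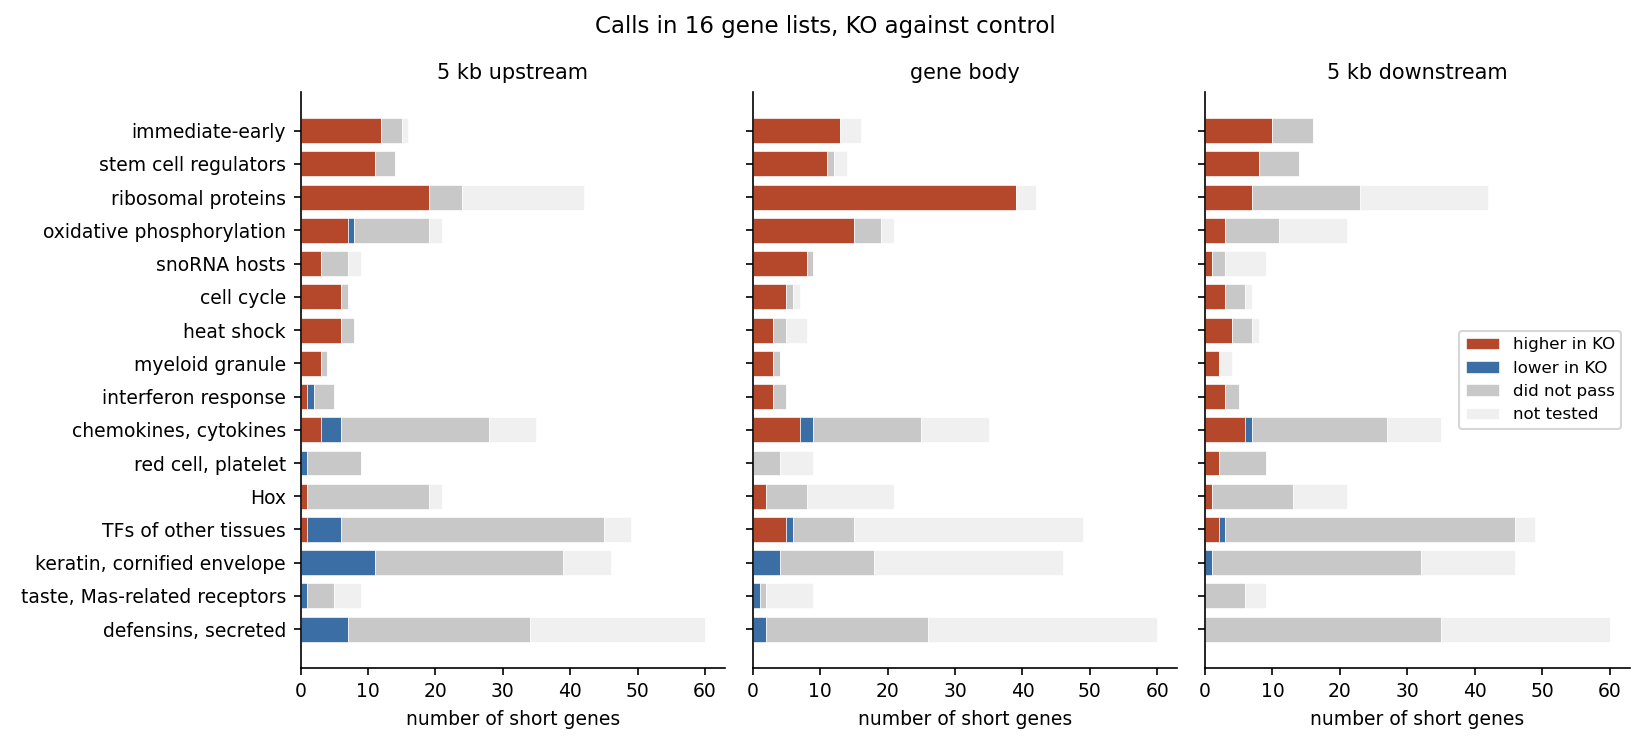
Number of short genes (x axis) in each of 16 gene lists (y axis) that were called higher in KO, called lower in KO, did not pass or were not tested, over the 5 kb upstream, the gene body and the 5 kb downstream. Over the body the ribosomal protein list holds 39 rises and 0 falls, and the keratin and cornified envelope list 0 rises and 4 falls.

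No fall over the body reached the median level of all genes that was asked of a named gene. The 10 largest falls above the median level of the members tested are given instead, a choice made after their values were seen. Lrrc30, a leucine-rich repeat gene, had 0.555 and 1.94 CPM in KO libraries, against 9.88 and 5.34 CPM in control libraries (log2 fold change -2.55 ± 0.60, edgeR adjusted p = 0.000655). Its upstream window gave -1.63 ± 0.56 (adjusted p = 0.0146) and its downstream window -1.65 ± 0.48 (adjusted p = 0.0295). The others were the pseudogene Fkbp1a-ps3 (-2.02), Mrgprh (-1.93), Usp17lc (-1.82), Prr30 (-1.76), the immunoglobulin constant region gene Ighg2c (-1.75), the muscle factor Myf6 (-1.74), Csl (-1.66), Calml3 (-1.61) and the acute-phase gene Saa2 (-1.61). Of these 10 falls 4 were called when scaled on library totals, 8 on pooled totals, 0 with receptor genes as the scale, 3 without KO replicate 1 and 0 without control replicate 1. All 10 were called after GC correction.

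Over the 5 kb upstream 2146 members were tested, 426 rose and 364 fell. These are 19.9% and 17% of the members tested, beside 24.0% and 14.3% of all genes tested. The median log2 fold change was -0.32 in the members tested and -0.09 in all genes tested. Rises and falls together made up 36.8% of the members tested and 38.3% of all genes tested. Here the KO libraries lay above both control libraries in 656 of the members tested and below both in 957, or 30.6% and 44.6%, beside 37.8% and 39.9% of all genes tested. The split was 332 and 434 when scaled on library totals, 571 and 66 on pooled totals, 517 and 6 with receptor genes as the scale and 302 and 432 after GC correction, so the balance of directions here depended on the scale. Without KO replicate 1 edgeR called 0 members, with 478 at an unadjusted p under 0.05. The split was 185 and 1 without KO replicate 2, 10 and 0 without control replicate 1 and 59 and 40 without control replicate 2. In CpG-rich short genes 194 of 420 upstream windows rose and 15 fell, and in CpG-poor ones 71 of 648 rose and 151 fell.

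The upstream rises named were Zfp36, Rnd2, Apom, H4f16, Myl6 and Emd, and in each but Zfp36 the window overlaps another annotated gene. Rnd2, a small GTPase, had 101 and 30 counts in KO libraries and 3 and 4 counts in control libraries upstream (log2 fold change 4.58 ± 0.59; edgeR adjusted p = 4.47e-11), while its body did not pass (1.33 ± 0.65, adjusted p = 0.0913). Apom, a lipoprotein that carries sphingosine-1-phosphate, had 124 and 42 counts in KO libraries and 7 and 6 counts in control libraries upstream, and its body did not pass (0.81 ± 0.63). The histone gene H4f16, the myosin light chain gene Myl6 and Emd, which encodes emerin of the nuclear envelope, rose upstream by 4.04, 3.99 and 3.87, and over the body by 3.43, 3.35 and 2.99. None of the 6 upstream rises was called without KO replicate 1.

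The upstream falls named were Msc, Capza3, Prr9, Gk2, Ddi1 and Cst11. Capza3, a capping protein gene of sperm, had 11 and 11 counts in KO libraries, against 100 and 40 counts in control libraries upstream (log2 fold change -2.27 ± 0.50; edgeR adjusted p = 0.000106), and 0 and 1 counts in KO libraries and 48 and 19 counts in control libraries over its body. Gk2, a testis glycerol kinase gene, had 12 and 23 counts in KO libraries and 129 and 74 counts in control libraries upstream and 0 over its body in all libraries. Both genes were lower in both KO libraries than in either control library, which was a condition for naming them. None of these 6 falls was called with receptor genes as the scale, without either KO library or without control replicate 1.

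Over the 5 kb downstream 2000 members were tested, 291 rose and 49 fell. These are 14.6% and 2.45% of the members tested, beside 10.8% and 2.29% of all genes tested, so the share that fell was near the background. Together they made up 17% of the members tested and 13.1% of all genes tested. Both KO libraries lay above both control libraries in 734 of the members tested and below both in 580, or 36.7% and 29%, beside 29.9% and 32.7% of all genes tested. The split was 263 and 90 when scaled on library totals, 249 and 4 with receptor genes as the scale and 234 and 102 after GC correction. It was 181 and 29 without KO replicate 1, 438 and 119 without KO replicate 2, 69 and 4 without control replicate 1 and 181 and 48 without control replicate 2. The rises named were Gps2, Zfp36, Hcfc1r1 and Abhd11os, each with a window that overlaps another gene. Gps2, a subunit of the NCoR corepressor complex, had 214 and 102 counts in KO libraries and 8 and 8 counts in control libraries downstream (log2 fold change 5.36 ± 0.74; edgeR adjusted p = 0.00062). Abhd11os, an antisense RNA gene, had 486 and 179 counts in KO libraries and 15 and 30 counts in control libraries downstream. The falls named were Capza3, Ddi1, Lrrc30 and Prr30. Capza3 had 10 and 15 counts in KO libraries, against 156 and 64 counts in control libraries downstream, which made it low in KO libraries in all 3 windows (-2.16 ± 0.45; edgeR adjusted p = 0.00383).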

How the data were processed

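H3K14ac CUT&Tag was measured in 4 libraries, 2 KO and 2 control. The authors deposited raw read counts per gene body, 5 kb upstream and 5 kb downstream window, with the counted length in bp, per the file headers. Counting used featureCounts on mm10, per the submitters' processing notes; for the aligner and the handling of duplicate and multiply matching reads, the choice is not given in the sources used here. Between the series tables and the per-sample files 0 values differed. Total counts per library were 4723549 and 6031189 in KO libraries and 12386891 and 10572534 in control libraries for gene bodies, 1065978 and 869859 in KO libraries and 1164409 and 1078248 in control libraries for upstream and 677213 and 732658 in KO libraries and 1260351 and 1142652 in control libraries for downstream windows. CPM are counts per 1000000 scaled by TMM.

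From the counts, edgeR 4.0.16 quasi-likelihood tests were fitted per window on all genes passing filterByExpr (minimum count 10, minimum total 15), with TMM scaling and Benjamini-Hochberg adjustment at 0.05. DESeq2 1.42.0, other scalings, filters, GC correction and left-out libraries were alternatives. One value per library was tested by exact permutation. The fits were tested on simulated counts in which 200 genes were changed, far fewer than were called in these data. Of 2-fold changes 10.8% were recovered over the body, 0% upstream and 0% downstream. Of 4-fold changes 71.9% were recovered over the body, 44.8% upstream and 61.4% downstream. Promoters and symbols came from RefSeq GRCm38.p6, and promoters were used where the deposited length was within 20% of the annotated span. Of the 2144 members with a position, 1728 met this. Overlaps with other genes were read from annotated spans, which can differ from the counted body. Named genes were the 10, 6 and 4 largest rises and falls over the body, upstream and downstream, past the threshold, without overlap and above the median level, plus up to 3 per list. The members and gene lists were chosen with earlier results of these data known.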

Additional observations from a re-analysis of the deposited data

How the results depend on the processing

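The higher share of gene body counts, the higher body to flank ratio and the differences from the other length classes kept their direction under each alternative tried. The upstream share of counts differed by -0.551 percentage points, and by -1.0 without the top 1% of members by count. The 715 gene body calls numbered 133 with a mean count of at least 50, 467 without members that overlap another gene, and 310 to 849 when each library was left out. The 790 upstream calls numbered 523 with receptor genes as the scale, 489 with DESeq2, 281 with a mean count of at least 50, 326 without overlapping members, and 0 to 186 when each library was left out. The 340 downstream calls numbered 220 with DESeq2, 139 with a mean count of at least 50, 91 without overlapping members, and 73 to 557 when each library was left out. Fewer genes were tested at the higher mean count and fewer members counted without overlaps; for the rest the cause was not tested. Same-numbered libraries of both groups share a replicate number, and their column headings carry neighbouring library numbers, but no source used here says what either marks, so they were not taken as pairs. Their deviations from the group means correlated at -0.36, -0.28 and -0.22 over body, upstream and downstream. With the replicate block the calls numbered 506, 381 and 288. With the numbers crossed, a pairing chosen after seeing the data that goes against those headings, they numbered 837, 1065 and 572. Relative to TMM, receptor genes as the scale moved the median log2 fold change of all genes by 0.65, 0.93 and 0.32, library totals by 0.35, -0.18 and -0.20, pooled totals by 0.22, 0.56 and -0.01, and GC correction by -0.17, -0.08 and -0.10. The log2 fold change of Elane lay between -0.34 and 2.25 when each library was left out, with the negative value without KO replicate 1, and that of Hes5 was -0.0066 after GC correction. With a median of 19 or fewer counts per library in the members tested, small differences were not detectable at this depth.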

Other observations

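The 6 short genes of the mitochondrial genome, COX1, CYTB, ND2, ND4, ND5 and mt-Rnr2, all rose over the gene body, with log2 fold changes between 1.29 and 1.78. Mitochondrial DNA carries no histones, so their reads measure no H3K14ac. Their summed counts were 702 and 966 in KO libraries and 549 and 324 in control libraries, which is 0.0149 and 0.016% in KO libraries and 0.00443 and 0.00306% in control libraries of all gene body counts. Mitochondrial reads thus took a larger part of the KO libraries; their part in the rises of nuclear genes was not tested.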
